A study of Mus musculus with 56 samples.

Results

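The DNA repair genes described here are 40 listed genes for the recognition, signalling, repair and tolerance of DNA damage, read across whole colon and jejunum of irradiated mice. Each gene was represented, in each tissue, by the probe set annotated to that gene alone with the highest mean. Xrcc2 had no such probe set here, so 39 of 40 genes were measured, among 18194 genes in all. All 39 passed the filter on low signal in colon and 38 in jejunum, where Rad51c did not pass, against 13645 genes that passed in each tissue. H2afx is listed under its current symbol, H2ax.

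The study set wild type (WT) mice of the BALB/C strain against mice of the same strain without Tweak (Tweak_KO, here KO), a cytokine of the TNF family, after 3 Gy of ionizing radiation. Tissue was taken at 0, 6 and 24 h, which with 2 tissues and 2 genotypes gives 12 groups and 56 arrays. Whether a colon and a jejunum array came from the same mouse is not stated in the labels, so results in both organs may not be independent. In colon there were 5 WT arrays at 0 h, 4 at 6 h and 4 at 24 h, and 5 KO arrays at each time. In jejunum there were 5, 5 and 4 WT arrays and 5, 4 and 5 KO arrays at 0, 6 and 24 h. Irradiation of the 0 h mice, the making of the KO line and the age of the mice are not stated in the labels.

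Cells mend DNA by several routes. Homologous recombination copies a sister chromatid, end joining rejoins broken ends directly, excision pathways cut out damaged bases or bulky lesions, and tolerance polymerases copy past a lesion that is still in place. Many genes of homologous recombination and of the Fanconi anemia pathway are transcribed mainly in cells that replicate DNA, under E2F factors. A smaller group is known to be induced by p53, the transcription factor that ionizing radiation activates. Xpc, Ddb2, Polk, Polh and Ercc5 were listed here as such genes from general knowledge, and whether p53 controls each of them in mouse was not tested. In the gut, dividing cells sit in the crypts and lose their cycling soon after irradiation.

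In colon, Polk and Ercc5 rose at 6 h in both genotypes. Rad54l, Dna2, Ung, Chek1 and Parp1 fell at 6 h in WT colon, and none of these 5 passed the test in KO colon. The difference between the genotypes' changes was not called for any of the 5 (adjusted p from 0.246 to 0.423, limma), with unadjusted 95% intervals above 0. All 5 calls in WT colon ended when replicates 1 and 3 of WT 0 h, which stand apart for replication genes, were left out. H2ax fell at 24 h in WT tissue of both organs and in KO jejunum. In jejunum no repair gene was called higher than at 0 h in either genotype. Few genes of any kind were called there, 0.432% and 1.4% of all genes in WT and 0.66% and 0.689% in KO at 6 and 24 h. The Polk changes in jejunum were all above 0 but not called.

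The promoters of the 7 genes called in WT colon at 6 h, and of Primpol, are shown to set rising and falling genes side by side. They are the 250 bases before an annotated start in the RefSeq table for build GRCm38.p6, written on the strand of the gene. Polk (both of its windows) and Ercc5 rose, Primpol differed between the genotypes in its change in colon, and Rad54l, Dna2, Ung, Parp1 and Chek1 fell in WT colon. Of the Rad54l windows, which differ in start by 1 base, 1 is shown. Capitals mark a match, on either strand, to 1 of the motifs searched.
Polk, chr13:96519188-96519437, minus strand: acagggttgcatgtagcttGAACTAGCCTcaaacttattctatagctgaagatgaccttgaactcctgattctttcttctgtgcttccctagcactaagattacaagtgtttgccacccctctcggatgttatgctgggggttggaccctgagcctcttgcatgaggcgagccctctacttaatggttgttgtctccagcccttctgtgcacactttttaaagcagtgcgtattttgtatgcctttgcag
Polk, chr13:96542580-96542829, minus strand: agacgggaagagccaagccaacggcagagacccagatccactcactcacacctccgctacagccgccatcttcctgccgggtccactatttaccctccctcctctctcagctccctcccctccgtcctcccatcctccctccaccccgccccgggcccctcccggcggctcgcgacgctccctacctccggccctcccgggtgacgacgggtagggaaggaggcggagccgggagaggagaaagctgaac
Ercc5, chr1:44147494-44147743, plus strand: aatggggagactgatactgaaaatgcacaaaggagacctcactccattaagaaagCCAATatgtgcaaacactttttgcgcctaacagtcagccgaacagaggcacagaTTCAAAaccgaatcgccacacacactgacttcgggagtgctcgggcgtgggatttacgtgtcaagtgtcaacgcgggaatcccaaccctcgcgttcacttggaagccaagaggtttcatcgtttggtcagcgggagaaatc
Primpol, chr8:46617228-46617477, minus strand: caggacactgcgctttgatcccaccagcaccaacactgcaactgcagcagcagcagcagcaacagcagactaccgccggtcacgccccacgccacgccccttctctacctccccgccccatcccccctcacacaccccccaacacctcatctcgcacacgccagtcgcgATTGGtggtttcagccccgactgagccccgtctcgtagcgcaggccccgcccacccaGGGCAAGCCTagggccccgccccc
Rad54l, chr4:116123690-116123939, minus strand: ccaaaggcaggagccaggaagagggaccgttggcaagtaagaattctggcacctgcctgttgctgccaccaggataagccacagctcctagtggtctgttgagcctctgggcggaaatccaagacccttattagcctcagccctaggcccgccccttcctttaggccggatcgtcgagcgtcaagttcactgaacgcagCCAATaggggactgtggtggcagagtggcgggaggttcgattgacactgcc
Dna2, chr10:62946779-62947028, plus strand: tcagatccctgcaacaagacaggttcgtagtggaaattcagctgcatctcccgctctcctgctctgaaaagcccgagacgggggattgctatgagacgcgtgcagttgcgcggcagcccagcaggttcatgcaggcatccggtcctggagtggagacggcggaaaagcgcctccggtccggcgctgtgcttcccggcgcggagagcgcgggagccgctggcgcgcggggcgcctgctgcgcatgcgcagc
Ung, chr5:114130185-114130434, plus strand: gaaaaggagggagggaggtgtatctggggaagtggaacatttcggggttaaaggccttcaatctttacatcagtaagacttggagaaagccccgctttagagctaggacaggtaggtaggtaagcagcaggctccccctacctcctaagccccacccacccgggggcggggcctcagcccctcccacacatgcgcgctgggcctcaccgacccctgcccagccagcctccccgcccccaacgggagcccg
Parp1, chr1:180568641-180568890, plus strand: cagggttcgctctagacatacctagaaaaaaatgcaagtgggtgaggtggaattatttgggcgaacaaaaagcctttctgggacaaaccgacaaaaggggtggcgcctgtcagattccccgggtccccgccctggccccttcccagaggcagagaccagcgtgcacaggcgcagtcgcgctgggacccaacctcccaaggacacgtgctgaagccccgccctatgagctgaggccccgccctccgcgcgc
Chek1, chr9:36726659-36726908, minus strand: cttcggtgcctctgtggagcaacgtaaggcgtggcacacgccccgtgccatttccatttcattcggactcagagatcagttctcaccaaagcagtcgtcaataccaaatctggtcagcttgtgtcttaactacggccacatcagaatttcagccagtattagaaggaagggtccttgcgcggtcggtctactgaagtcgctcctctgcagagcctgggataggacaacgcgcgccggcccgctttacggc

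The motifs searched were CCAAT, the letters TTTGAA of the cell cycle homology region, the E2F words TTTCGCGC, TTTGGCGC, TTTCCCGC and TTTGCCGC, and the p53 decamer. The decamer is only part of a full p53 site. In the first Polk window the capitals are a p53 decamer at position -231 from the start, and in the second no motif was found. The first window lies inside the annotated gene (96480687 to 96542579), before an internal start. The second lies directly upstream of the whole gene. In the Ercc5 window the capitals are CCAAT at -195 and TTTGAA at -141. That window also lies inside its annotated gene (44146948 to 44181260). The capitals of Primpol are CCAAT at -81 and a p53 decamer at -24, and that of Rad54l is CCAAT at -51. The windows of Rad54l, Dna2 and Ung reach in part into their annotated genes. The windows of Dna2, Ung, Parp1 and Chek1 held none of the motifs searched, so of the 5 genes that fell 1 had a match. The table held 36 windows for 30 of the 40 genes. An E2F word was found in 11.11% of them (Brca2, Chek2, Mdc1 and Xrcc6), against 1.86% of all 32851 windows in the table, but in 1 of the 13 windows of the S phase members. A p53 decamer was found in 8.33% of the repair windows (Fanca, Polk and Primpol) and in 7.13% of all windows. CCAAT was found in 41.67% against 33.85%, and TTTGAA in 2.78% against 15.99%. These matches describe letters in a window and show no binding.

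Values are log2 signals as deposited. A gene was called changed where the adjusted p of a limma fit was under 0.05, adjusted over all 13645 genes of the tissue by the Benjamini-Hochberg method. Changes are log2 differences ± SE. A repeated lowest value, 2.28 in colon and 2.32 in jejunum, was the floor of the tables. The mean of 6 of the 39 members in colon and of 5 in jejunum lay less than 1 log2 unit above it, Rad51c, Rad54b, Blm, Fancd2 and Chek1 in both tissues and Fanci in colon. Levels of whole tissue cannot tell fewer cells of a type from less RNA per cell.

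Several arrays stood apart before any test. A probe set annotated to the deleted gene together with a read-through gene separated the genotypes on every array, at 3.71 to 4.67 in WT and 2.28 to 2.81 in KO colon, and at 2.77 to 4.09 and 2.34 to 2.75 in jejunum. Mean signal of 31 DNA replication genes was 6.91 and 6.63 in WT colon 0 h replicates 1 and 3, and 5.47 to 5.89 in the other 3. WT colon 0 h replicate 2 carried small intestinal enterocyte transcripts (list mean 11.38, against 5.20 to 8.67 on the other colon arrays). KO colon 0 h replicate 3 read 7.79 for 17 p53 targets outside repair, against 6.70 to 6.84 in its group. Jejunum WT 0 h replicate 2, WT 24 h replicate 2 and KO 0 h replicate 3 had raised colonic markers (8.61 to 9.74, against 6.93 to 7.65 on the other jejunum arrays). By the array names, all WT arrays and 1 KO 0 h array of each tissue belong to 1 series of arrays and the other KO arrays to a second, so genotype and series cannot be told apart at 6 and 24 h.

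In WT colon at 6 h, 2 of 39 repair genes rose and 5 fell, where 2.18% of all genes tested were called, 1.44% higher and 0.74% lower. The median change of the 39 was -0.26, with 32 of 39 values below 0, and that of all genes was 0.00. At 24 h, 2 rose and 3 fell (5.29% of all genes called, 2.78% higher and 2.51% lower), with a median of -0.27. In KO colon at 6 h, 3 rose and none fell (1.48% called, 1.26% higher), with a median of -0.03. At 24 h in KO colon none of the 39 was called (0.183% called), with a median of -0.02.

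**Figure D1:**
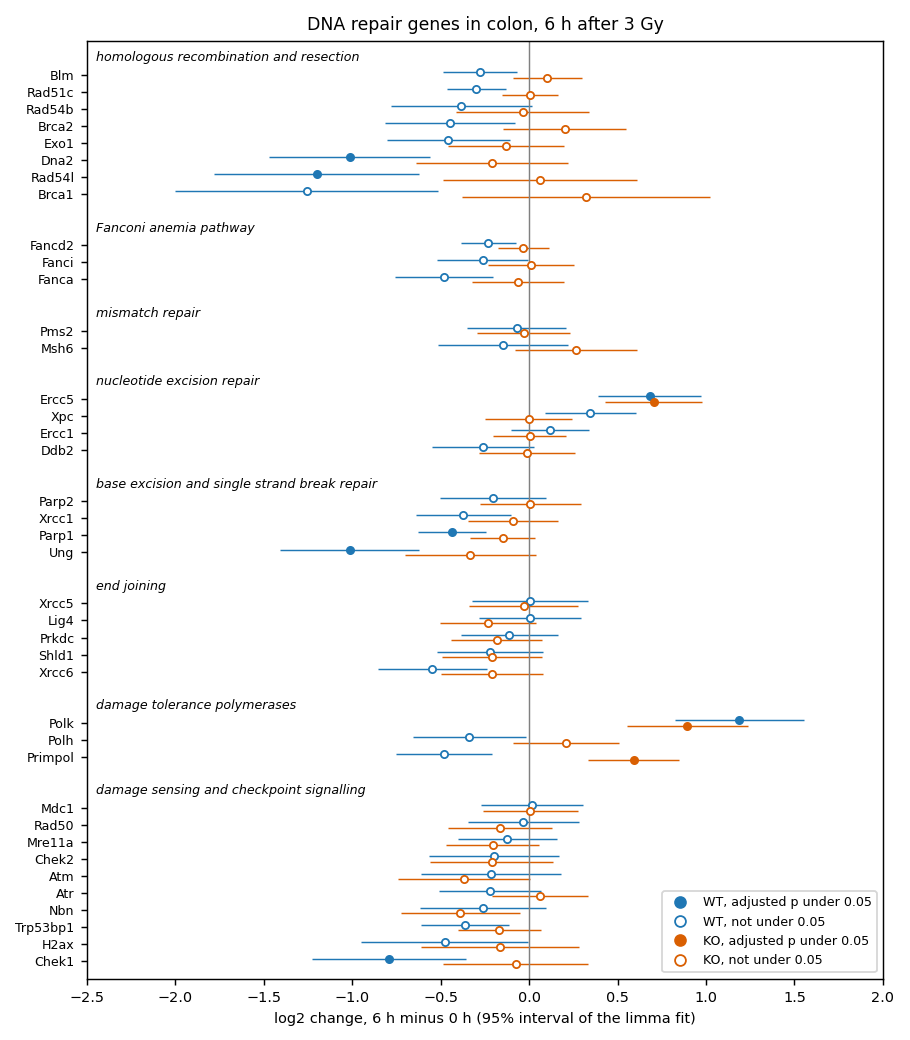
Change from 0 h to 6 h in colon for the 39 measured repair genes, ordered by role. The x axis is the log2 change with its 95% interval from the limma fit, blue for WT and orange for KO, and filled points passed the adjusted p threshold. Polk and Ercc5 lie to the right of 0 in both genotypes, and Rad54l, Dna2, Ung, Parp1 and Chek1 have filled points to the left of 0 in WT only.

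Polk, the tolerance polymerase known for copying past bulky base lesions, rose by the most among the repair genes called in colon. The 5 WT colon arrays at 0 h read 5.33, 5.44, 5.66, 5.77 and 5.73, the 4 at 6 h read 6.51, 6.87, 6.81 and 6.90, and the 4 at 24 h read 6.38, 6.43, 7.01 and 6.72. Every WT array at 6 and 24 h was above every array at 0 h. The change was 1.19 ± 0.176 at 6 h (2.28-fold, adjusted p = 0.000179, limma) and 1.05 ± 0.176 at 24 h (2.07-fold, adjusted p = 0.00111, limma).

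In KO colon Polk read 5.86, 5.71, 6.43, 5.44 and 5.90 at 0 h, and 6.87, 6.96, 6.97, 6.18 and 6.83 at 6 h. The groups overlapped through KO 0 h replicate 3, the array with raised p53 targets, and through KO 6 h replicate 4. The change at 6 h was 0.89 ± 0.166 (1.86-fold, adjusted p = 0.00427, limma). At 24 h the 5 arrays lay between 6.42 and 6.83, and the change of 0.73 ± 0.166 was not called with all arrays (adjusted p = 0.0692, limma), whereas without KO 0 h replicate 3 there were 2 repair genes called. The change in KO minus that in WT was -0.30 at 6 h, with a 95% interval from -0.79 to 0.20 (adjusted p = 0.682, limma), so a difference between the genotypes was not detected. The 3 called Polk changes kept their call under every alternative run.

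A second Polk probe set, with a mean of 3.66 in colon against 6.35 for the first, moved by 0.93 at 6 h and 0.48 at 24 h in WT, and by 0.32 and 0.05 in KO. In jejunum the first probe set was dimmer. Its 5 WT arrays at 0 h ran from 3.66 to 4.54, those at 6 h from 4.18 to 5.61 and those at 24 h from 4.63 to 5.45. All 4 jejunum changes of Polk from 0 h were above 0, at 0.77 and 0.71 in WT and 0.68 and 0.53 in KO, and none passed the test (adjusted p from 0.128 to 0.309, limma). At WT 24 h the groups did not overlap. In that tissue 5 of the 28 arrays held the same Polk value to 3 decimals, 4.63.

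Ercc5, a nuclease of nucleotide excision repair that cuts the damaged strand beside the lesion, rose by a smaller step. In WT colon it read 6.40, 6.17, 5.80, 6.50 and 5.96 at 0 h and 6.62, 6.87, 7.13 and 6.77 at 6 h. In KO colon it read 6.05, 6.08, 6.36, 6.13 and 5.67 at 0 h and 6.77, 6.74, 6.82, 6.84 and 6.64 at 6 h. In both genotypes the 6 h arrays lay above all of the 0 h arrays.

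The Ercc5 change at 6 h was 0.68 ± 0.141 in WT (1.61-fold, adjusted p = 0.00747, limma) and 0.71 ± 0.133 in KO (1.63-fold, adjusted p = 0.00499, limma). The difference of these changes was 0.02, with a 95% interval from -0.38 to 0.42. At 24 h the WT change was 0.48 ± 0.141 (adjusted p = 0.0468, limma), and 11 of 16 alternatives ended that call. Among them was leaving out any of WT 0 h replicates 2, 3 and 5 or WT 24 h replicates 2, 3 and 5, with changes from 0.39 to 0.50. The KO change of 0.49 ± 0.133 at 24 h was not called with all arrays (adjusted p = 0.163, limma), although the groups did not overlap. In jejunum the Ercc5 changes were 0.20 and 0.18 in WT and 0.25 and 0.31 in KO, none of them called.

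**Figure D2:**
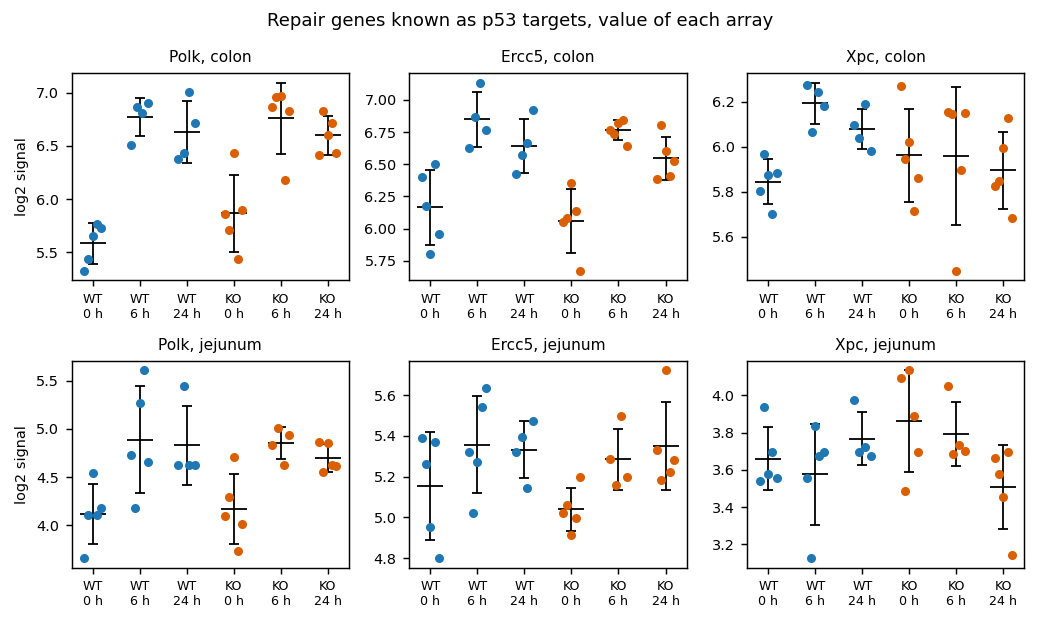
Polk, Ercc5 and Xpc on each array in colon (upper row) and jejunum (lower row). The y axes are log2 signal and do not share a range, points are arrays, blue for WT and orange for KO, and bars are the mean and SD. The group means of Polk and Ercc5 in colon are higher at 6 and 24 h than at 0 h in both genotypes, while Xpc in KO colon has the same mean at 0 and 6 h, 5.96.

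The other repair genes listed as p53 targets did not pass the test. Xpc, which finds distorting lesions for nucleotide excision repair, read 5.80, 5.97, 5.87, 5.70 and 5.88 in WT colon at 0 h and 6.28, 6.07, 6.24 and 6.18 at 6 h. Those groups did not overlap, but the change of 0.35 ± 0.126 was not called (adjusted p = 0.174, limma). In KO colon the Xpc change was 0.00 at 6 h, and the difference between genotypes, -0.35 with a 95% interval from -0.71 to 0.01, was not called either.

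Ddb2, the partner that loads Xpc onto ultraviolet lesions, changed by -0.26 ± 0.140 in WT colon at 6 h (adjusted p = 0.412, limma). A second Ddb2 probe set changed by -0.30 there. At 24 h it changed by -0.63 in KO colon and -0.82 in KO jejunum, against -0.25 and -0.08 for the first. Polh, the polymerase that copies past ultraviolet dimers, changed by -0.34 ± 0.155 in WT colon at 6 h (adjusted p = 0.310, limma). Of the 5 repair genes listed as p53 targets, 2 were thus called higher in WT colon at both times and in KO colon at 6 h. Of all genes, 1.44% and 2.78% were called higher in WT colon at 6 and 24 h, and 1.26% in KO colon at 6 h. The median of the 5 changes in WT colon at 6 h was 0.35. For comparison, 14 of 16 tested p53 targets outside repair rose in WT colon at 6 h (1.44% of all genes called higher). In KO colon 13 of 16 rose at 6 h (1.26% called higher). The median changes of the 16 were 1.28 in WT and 0.96 in KO.

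Among genes of homologous recombination, Rad54l, a motor protein that helps the recombinase pair DNA strands, fell in WT colon. Its 5 arrays at 0 h read 5.67, 4.15, 5.37, 4.33 and 3.46, the 4 at 6 h read 3.07, 3.52, 3.16 and 3.82, and those at 24 h lay between 3.39 and 3.68. Replicates 1 and 3 at 0 h were the highest of all colon arrays, and replicate 5 lay within the range of the WT arrays at 6 h. The change was -1.20 ± 0.281 at 6 h (adjusted p = 0.0203, limma) and -1.03 ± 0.281 at 24 h (adjusted p = 0.0326, limma).

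The Rad54l fall was -0.59 at 6 h and -0.42 at 24 h without WT 0 h replicates 1 and 3, and neither was called (adjusted p = 0.230 and 0.330, limma). At 6 h the call also ended when only replicate 1 (-0.93) or 3 (-1.01) of WT 0 h, or replicate 1 (-1.09) or 4 (-1.13) of WT 6 h, was left out. At 24 h the same held for replicate 1 (-0.76) or 3 (-0.84) of WT 0 h and for replicate 2 (-1.04), 3 (-0.97) or 5 (-1.07) of WT 24 h. In KO colon all 15 arrays lay between 3.29 and 3.98, and the changes were 0.06 and -0.06.

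Dna2, a nuclease and helicase that trims replication flaps and resects broken ends, read 6.05, 5.46, 5.98, 5.03 and 5.0 in WT colon at 0 h and 4.29, 4.31, 4.62 and 4.72 at 6 h. The groups did not overlap, and the change was -1.02 ± 0.222 (2.02-fold lower, adjusted p = 0.0119, limma). It was -0.68 and not called without WT 0 h replicates 1 and 3 (adjusted p = 0.205, limma). Leaving out WT 6 h replicate 1 (-0.95) or 2 (-0.96) also ended the call. In KO colon the Dna2 change was -0.21 ± 0.209 at 6 h (adjusted p = 0.738, limma). The other Dna2 probe sets, with means of 2.58 and 2.34 close to the floor, moved by -0.20 and -0.02 in WT colon at 6 h.

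Dna2 was also called lower in WT jejunum. It read 6.23, 6.34, 6.54, 6.24 and 6.07 at 0 h and 4.68, 4.97, 5.94, 5.64 and 5.66 at 6 h, again without overlap. The change was -0.91 ± 0.210 (adjusted p = 0.0495, limma), and 13 of 16 alternatives ended the call, with the direction kept in all 16. Single arrays whose removal did so were WT 0 h replicates 1 to 4 and WT 6 h replicates 1, 2, 4 and 5, with changes from -0.98 to -0.73. In KO jejunum the 5 arrays at 0 h, from 5.95 to 6.53, lay above the 4 at 6 h, from 5.22 to 5.91. The KO change of -0.59 ± 0.222 was not called (adjusted p = 0.264, limma). In WT jejunum at 6 h the other Dna2 probe sets, with means of 3.05 and 2.69, moved by -0.10 and -0.13.

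Brca1, which directs broken ends to recombination, had a change of -1.26 ± 0.361 in WT colon at 6 h that was not called (adjusted p = 0.0674, limma). Its WT 0 h arrays ran from 3.81 to 6.14, with replicates 1 and 3 highest. Brca2, which loads the recombinase, changed by -0.45 and Exo1, a resection nuclease, by -0.46. All 8 measured recombination genes had a change below 0 in WT colon at 6 h, 2 of them called (0.74% of all genes called lower). In KO colon 5 of 8 were above 0 with none called (1.48% of all genes called). Rad51c, Rad54b and Blm among the 8 were read near the floor.

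Ung, the glycosylase that removes uracil from DNA at the start of base excision repair, fell in WT colon at 6 h. It read 7.45, 6.60, 7.08, 6.62 and 6.02 at 0 h and 5.45, 5.76, 5.76 and 5.97 at 6 h, with no overlap. The change was -1.02 ± 0.190 (2.02-fold lower, adjusted p = 0.0028, limma). It kept its call in 15 of 16 alternatives and was -0.67 without WT 0 h replicates 1 and 3 (adjusted p = 0.0554, limma). At 24 h the WT arrays lay between 5.99 and 6.41, and the change of -0.55 was not called.

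In KO colon Ung changed by -0.33 ± 0.180 at 6 h, and the difference from the WT change was 0.68 with a 95% interval from 0.14 to 1.22 (adjusted p = 0.356, limma). In jejunum the Ung changes at 6 h were -0.71 in WT and -0.47 in KO, neither called (adjusted p = 0.121 and 0.322, limma). The KO jejunum arrays at 6 h, from 5.11 to 5.42, lay below all of those at 0 h, from 5.49 to 5.95.

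Parp1, which senses strand breaks and builds poly(ADP-ribose) chains, fell by a smaller step in WT colon at 6 h. It read 7.74, 7.25, 7.64, 7.35 and 7.56 at 0 h and 7.13, 6.88, 7.17 and 7.12 at 6 h, with no overlap. The change was -0.43 ± 0.0936 (1.35-fold lower, adjusted p = 0.0106, limma). The call ended without WT 0 h replicates 1 and 3 (-0.31), without WT 6 h replicate 2 alone (-0.37), and with the mean of all its probe sets (-0.28). The other 3 Parp1 probe sets moved by -0.36, -0.30 and -0.01.

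Chek1, the kinase that holds replication origins and mitosis back after damage, was read close to the floor in colon. Its WT arrays at 0 h read 4.86, 3.50, 4.19, 3.18 and 3.17, and those at 6 h 2.90, 3.01, 3.08 and 2.98. Of the 28 colon arrays, 7 held the same Chek1 value, 3.18. The change of -0.79 ± 0.211 was called (adjusted p = 0.0447, limma), and 11 of 16 alternatives ended the call. Leaving out WT 0 h replicate 1 (-0.52) or 3 (-0.69), or any 1 of the 4 WT 6 h arrays (-0.82 to -0.76), did so, and without both WT 0 h replicates 1 and 3 the change was -0.29.

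The 14 measured repair genes that are best known from S phase were, as a list, below 0 throughout in WT colon. At 6 h all 14 changes were negative with a median of -0.45, and Rad54l, Dna2, Ung and Chek1 were called (0.74% of all genes called lower). At 24 h all 14 were again negative with a median of -0.41, and Rad54l alone was called (2.51% of all genes called lower). In KO colon none was called at either time (1.48% and 0.183% of all genes called), with medians of -0.01 and 0.01 and 7 and 8 of 14 changes above 0. Of the 14, Rad51c, Rad54b, Blm, Fancd2, Fanci and Chek1 had means less than 1 log2 unit above the floor. Rad51c, Rad54b, Blm and Fanci each held 1 same value on 17 to 20 of 28 arrays. All 14 were read on the same arrays, so their signs are not independent. The KO and WT comparisons share no arrays.

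The arrays behind these medians can be read from the list means. In WT colon at 0 h the mean of the S phase repair genes was 4.87, 3.97, 4.51, 3.85 and 3.70 over replicates 1 to 5. The mean of the DNA replication genes on the same arrays was 6.91, 5.89, 6.63, 5.82 and 5.47. At 6 h the repair means were 3.52 to 3.68, below all 5 arrays at 0 h, and the replication means were 5.21 to 5.31. Replicates 1 and 3 were the highest on both scales and replicate 5 the lowest of its group.

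The 5 KO colon arrays at 0 h read 3.57 to 3.82 for the S phase repair mean and 5.39 to 5.83 for the replication mean, which lies in the range of WT 0 h replicates 2, 4 and 5 or below it. Of 31 replication genes, 17 fell in WT colon at 6 h (0.74% of all genes called lower) and none in KO (1.48% called in either direction). Without WT 0 h replicates 1 and 3 no repair gene was called lower in WT colon, and the 2 calls left at 6 h were rises, as was the 1 left at 24 h. Without WT 0 h replicate 5, in contrast, 14 repair genes were called at 6 h, 12 of them lower, and 14 at 24 h, 13 of them lower. Calls over all genes moved in the same directions, from 297 at 6 h and 722 at 24 h with all arrays. They were 102 and 203 without replicates 1 and 3, and 710 and 1341 without replicate 5.

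B cell markers also moved in WT colon. The mean of 6 measured markers was 3.64 to 5.07 at 0 h, 3.49 to 4.05 at 6 h and 3.17 to 3.47 at 24 h, with Pax5 near the floor on every array. Replicate 5 at 0 h, the lowest for replication genes, was the highest for B cell markers, and replicate 3, high for replication genes, was the lowest. The part of B cells in the repair changes was not tested.

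**Figure D3:**
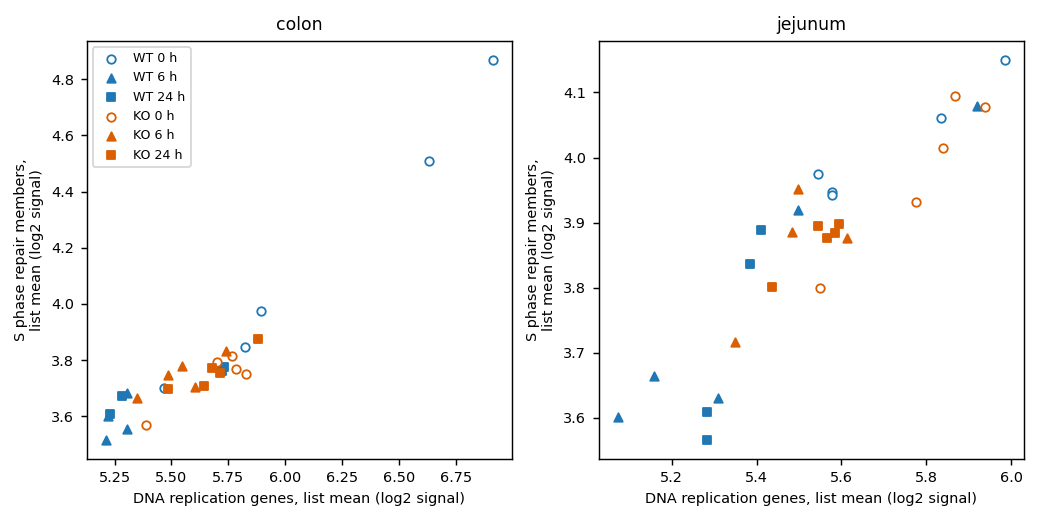
Mean log2 signal of the DNA replication genes (x axis) and of the S phase repair genes (y axis) on each array, colon at left and jejunum at right, with the genotype by colour and the time by symbol. In colon WT 0 h replicates 1 and 3, at 6.91 and 6.63 on the x axis, stand apart from the other arrays.

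In jejunum the S phase repair means ran from 3.94 to 4.15 in WT at 0 h, from 3.60 to 4.08 at 6 h and from 3.57 to 3.89 at 24 h. The WT arrays at 24 h lay below all of those at 0 h. In KO jejunum the means ran from 3.80 to 4.09 at 0 h and from 3.80 to 3.90 at 24 h. Of the 13 tested S phase repair genes, 1 fell in WT at 6 h (Dna2) and none at 24 h, with medians of -0.18 and -0.29. Of all genes, 0.169% and 0.843% were called lower in these comparisons.

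Over all 38 tested repair genes of the jejunum, none was called higher and 2 were called lower in WT at 6 h (0.432% of all genes called, 0.169% lower). At 24 h 1 was called lower (1.4% called, 0.843% lower). The medians were -0.18 and -0.29. In KO jejunum none was called at 6 h (0.66% called) and 1 fell at 24 h (0.689% called, 0.425% lower), with medians of -0.15 and -0.14. From 6 to 24 h, 1 repair gene rose in WT jejunum (0.755% called, 0.462% higher) and none was called in KO (0.117% called).

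H2ax, the histone variant that is phosphorylated around a break, was lower at 24 h. In WT jejunum it read 8.30, 8.41, 8.90, 8.68 and 8.30 at 0 h and 7.22, 7.42, 7.37 and 7.45 at 24 h. The groups did not overlap, and the change of -1.16 ± 0.205 (2.23-fold lower, adjusted p = 0.00334, limma) kept its call in all 15 alternatives. At 6 h the WT arrays spread from 7.52 to 8.93 and the change of -0.40 was not called.

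In KO jejunum H2ax read 8.36, 8.79, 8.55, 8.84 and 8.82 at 0 h and 8.20, 7.82, 7.89, 7.54 and 7.78 at 24 h, without overlap. The change was -0.83 ± 0.194 (adjusted p = 0.0442, limma), and 10 of 16 alternatives ended the call while the values stayed between -0.86 and -0.75 in those 10. Single arrays whose removal did so were KO 0 h replicates 2, 3, 4 and 5 and KO 24 h replicates 2, 3, 4 and 5.

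In WT colon H2ax read 9.17, 8.09, 8.82, 8.64 and 7.87 at 0 h and 7.76, 7.23, 7.10 and 7.71 at 24 h, without overlap. The change was -1.07 ± 0.230 (2.10-fold lower, adjusted p = 0.00718, limma), and -0.75 without WT 0 h replicates 1 and 3 (adjusted p = 0.110, limma). In KO colon the change of -0.56 ± 0.216 at 24 h was not called (adjusted p = 0.449, limma). Mitosis genes were low in WT tissue at 24 h as well, and a link to H2ax was not tested. All 22 mitosis genes fell in WT colon at 24 h (2.51% of all genes called lower). In WT jejunum 10 of 22 fell at 24 h (0.843% of all genes called lower). The list mean of the mitosis genes in WT jejunum was 6.15 to 6.85 at 0 h and 5.10 to 5.49 at 24 h. The H2ax measurement covers transcripts only, not the phosphorylated protein.

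Primpol, which lays new primers beyond a stalled fork, had changes of opposite sign in the 2 genotypes of colon at 6 h. In WT colon it read 5.56, 5.89, 5.96, 5.77 and 5.77 at 0 h, 5.42, 5.27, 5.35 and 5.20 at 6 h, and 5.19, 5.51, 5.14 and 5.17 at 24 h. All WT arrays at 6 and 24 h were below all of those at 0 h. The change was -0.48 ± 0.132 at 6 h, not called (adjusted p = 0.0548, limma), and -0.54 ± 0.132 at 24 h (adjusted p = 0.0184, limma). Leaving out replicate 3 of WT 0 h (-0.49), or replicate 3 (-0.50) or 5 (-0.51) of WT 24 h, ended the call at 24 h.

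In KO colon Primpol read 5.29, 4.92, 4.98, 4.81 and 5.38 at 0 h, 5.69, 5.74, 6.01, 5.61 and 5.29 at 6 h, and 4.94 to 5.33 at 24 h. The 6 h arrays were higher except for replicate 5. The change was 0.59 ± 0.125 at 6 h (1.51-fold, adjusted p = 0.0119, limma), and it was 0.52 and not called without KO 0 h replicate 4 (adjusted p = 0.0506, limma). From 6 to 24 h Primpol fell again, by -0.53 ± 0.125 (adjusted p = 0.0344, limma), the 1 repair gene called in that comparison (1.29% of all genes called, 0.791% lower). That call ended without any of KO 6 h replicates 1 to 4 or KO 24 h replicates 1, 2, 3 and 5, with changes from -0.57 to -0.45.

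The difference between the genotypes' changes at 6 h was 1.07 ± 0.182 (adjusted p = 0.0262, limma), the 1 repair gene called there (0.022% of all genes called). Without WT 0 h replicate 3, WT 6 h replicates 2, 4 or 5, KO 0 h replicates 2, 3 or 4, or KO 6 h replicate 2 the call ended, with differences from 1.00 to 1.08. Skeletal muscle transcripts were high on the KO colon 6 h arrays. The mean of 8 such markers was 6.68, 6.75, 7.15, 6.84 and 5.34 over replicates 1 to 5, against 3.37 to 3.85 in KO colon at 0 h and 3.53 to 6.66 in WT colon at 6 h. Replicate 5 was the lowest for both the muscle markers and Primpol, and the part of muscle in the Primpol change was not tested. In jejunum the Primpol changes lay between -0.34 and -0.08, and none was called.

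Shld1, a shieldin subunit that protects broken ends from resection, fell in WT jejunum at 6 h. It read 4.95, 4.79, 4.30, 4.60 and 4.56 at 0 h, 4.03, 3.33, 4.03, 3.40 and 3.96 at 6 h, and 5.06, 4.01, 4.82 and 4.48 at 24 h. The 6 h arrays were below all of those at 0 h, and the change was -0.89 ± 0.176 (adjusted p = 0.0137, limma). From 6 to 24 h it rose by 0.84 ± 0.186 (adjusted p = 0.0291, limma).

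The first Shld1 call ended when WT 0 h replicate 1 (-0.81) or replicate 2 (-0.79) or 4 (-0.80) of WT 6 h was left out. The second ended when replicate 2 (0.74) or 4 (0.76) of WT 6 h, or replicate 1 (0.69) or 3 (0.77) of WT 24 h, was left out. In KO jejunum the 14 arrays lay between 3.63 and 4.23, and the changes at 6 and 24 h were both -0.04. Of the 28 jejunum arrays, 7 held the same Shld1 value, 4.03. A second Shld1 probe set moved by -0.39 in WT jejunum at 6 h and by -0.01 at 24 h. In colon the 2 probe sets had changes of -0.22 and 0.09 in WT at 6 h, neither called.

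**Figure D4:**
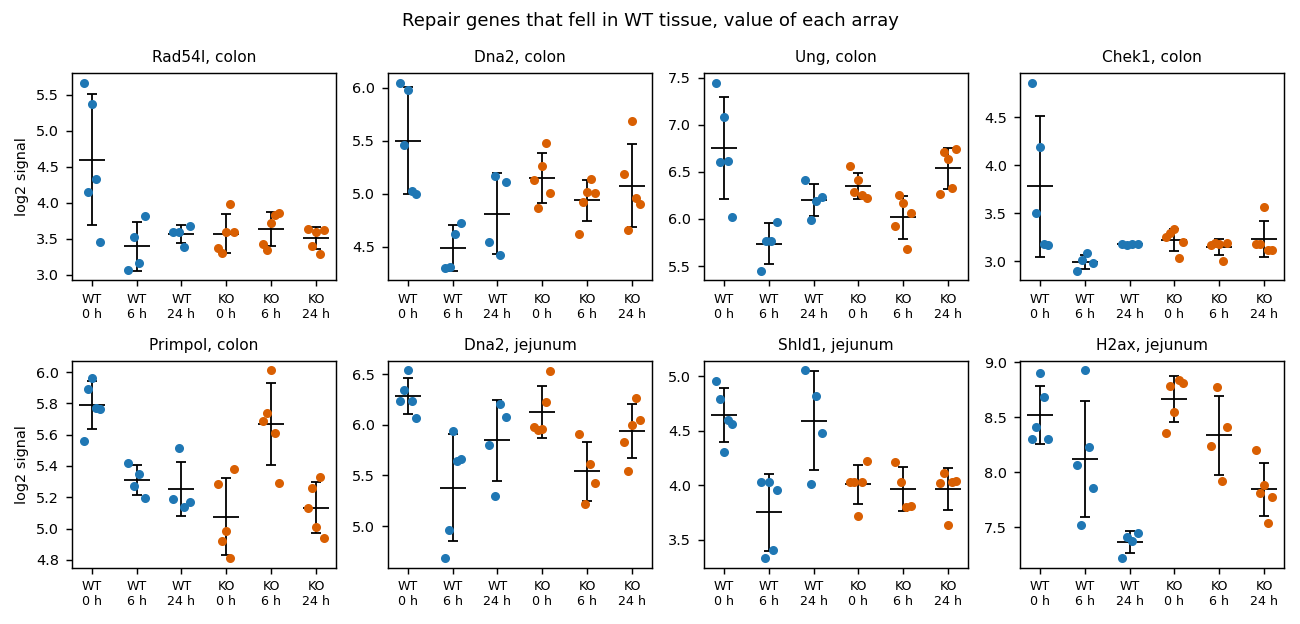
Repair genes that fell in WT tissue, on each array. The y axes are log2 signal with a range for each panel, points are arrays (blue for WT, orange for KO), and bars are the mean and SD. In the upper row the 2 highest WT colon arrays at 0 h for Rad54l and Chek1 are replicates 1 and 3, and in the lower row all 4 WT jejunum arrays at 24 h read 7.22 to 7.45 for H2ax.

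The remaining genes passed no test from 0 h in either tissue. The Fanconi anemia genes Fanca, Fancd2 and Fanci, which act on crosslinked strands, had a median change of -0.26 in WT colon at 6 h and -0.03 in KO. Fanca was the nearest to a call, at -0.48 ± 0.135 (adjusted p = 0.0589, limma). Among end joining genes, Xrcc6, a subunit of the Ku clamp on broken ends, changed by -0.55 ± 0.149 in WT colon at 6 h (adjusted p = 0.0518, limma). Its partner Xrcc5 and the ligase gene Lig4 were near 0 in that comparison.

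Of the 10 genes for damage sensing and checkpoint signalling, 9 changed by less than 0 in WT colon at 6 h. The median of the 10 was -0.22, and Chek1 was called (0.74% of all genes called lower). At 24 h all 10 were below 0, with H2ax called (2.51% of all genes called lower). Trp53bp1, which holds broken ends for joining, changed by -0.36 ± 0.121 at 6 h without overlap of the groups and was not called (adjusted p = 0.132, limma). The kinase genes Atm and Atr were not called in any comparison. The mismatch repair genes Msh6 and Pms2 were not called in any comparison either.

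Between the genotypes at 0 h, 3 repair genes were lower in KO colon and none was higher (2.07% of all genes called, 0.696% lower). Primpol was lower by the most certain margin, at -0.71 ± 0.125 (adjusted p = 0.00289, limma), with no overlap between the 5 KO and the 5 WT arrays. Rad54l was lower by -1.03 ± 0.265 (adjusted p = 0.0414, limma), and by -0.41 without WT 0 h replicates 1 and 3 (adjusted p = 0.303, limma). Its call also ended on removal of replicate 1 (-0.76) or 3 (-0.83) of WT 0 h alone, and on removal of KO 0 h replicate 1 (-0.98), 2 (-0.96), 3 (-1.03) or 5 (-1.03).

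Polh read 6.36, 5.49, 5.77, 5.82 and 5.96 in WT colon at 0 h and 5.46, 4.78, 5.46, 5.55 and 5.06 in KO. The groups overlapped, and the difference was -0.62 ± 0.146 (adjusted p = 0.0255, limma). Leaving out replicate 1 of WT (-0.50), or replicate 2 (-0.50) or 5 (-0.56) of KO, ended the call. With the array series as a term in the fit, which rests on 1 KO array, Primpol differed by -0.50, Rad54l by -1.23 and Polh by -0.42, and none was called (adjusted p = 0.936, 0.770 and 1, limma).

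No repair gene was called between the genotypes of colon at 6 h (0.879% of all genes called) or 24 h (0.469% called). None was called in jejunum at 0, 6 or 24 h (0.183%, 2.14% and 0.704% called). Apart from Primpol in colon at 6 h, no repair gene was called for a difference between the genotypes' changes, where 0.0293% of all genes were called in colon at 24 h and 0% in jejunum at both times. From 6 to 24 h no repair gene was called in WT colon (0.242% called).

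Few repair genes outside the 40 were called in the WT comparisons with 0 h, and the counts are too small to set apart from the shares of all genes. Of 95 tested in colon, 1 fell in WT at 6 h (2.18% of all genes called, 0.74% lower), Lig1, the ligase that seals replication and excision nicks, by -1.38 ± 0.236 (adjusted p = 0.000994, limma). At 24 h, where 5.29% of all genes were called, 2.78% higher and 2.51% lower, 3 of the 95 were. Fancb of the Fanconi core complex fell by -0.62 ± 0.183 (adjusted p = 0.0465, limma) and Ube2t, its ubiquitin conjugating enzyme, by -1.20 ± 0.285 (adjusted p = 0.0144, limma). Rev1, a scaffold of tolerance polymerases, rose at that time by 0.93 ± 0.227 (adjusted p = 0.0174, limma). In KO colon none of the 95 was called at 6 or 24 h.

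In jejunum, of 93 tested, 1 was called in WT at 24 h (1.4% of all genes called, 0.843% lower) and none at 6 h (0.432% called). Ube2t fell at 24 h by -0.78 ± 0.183 (adjusted p = 0.0288, limma). The other calls were singled out after their values were seen. Rad18, the ubiquitin ligase that recruits tolerance polymerases, rose in KO jejunum at 6 h by 1.15 ± 0.268 (adjusted p = 0.0473, limma). In that comparison 0.66% of all genes were called. Rad18 and Wee1, the kinase that delays mitosis, were higher in KO than in WT jejunum at 6 h, by 1.22 and 1.36 (adjusted p = 0.0149 and 0.0213, limma), 2 of 93 where 2.14% of all genes were called. In colon Wee1 fell in KO from 6 to 24 h by -1.16, and Mbd4, a glycosylase, was lower in KO at 0 h by -0.43 (adjusted p = 0.0238 and 0.0478, limma).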

How the data were processed

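Total RNA of whole colon and jejunum was hybridised to Affymetrix mouse arrays. The deposited values are log2 signals, and the submitters' processing notes name RMA and GCRMA without versions or order. The deposited tissue tables equalled the value table in all 27 matched colon and 28 matched jejunum columns, and 1 colon column matched no sample label and was not used. Probe sets were named from the platform annotation (34958 with 1 gene, 932 with several, 9211 with none). Genes in the lowest 25% by mean signal were not tested. Each tissue was fitted in R 4.3.3 with limma 3.58.1 (6 groups, empirical Bayes moderation with a trend), which was tested on simulated data. Arrays are the replicates, and their number limits the precision. The 40 members and all lists were chosen with earlier results of these data known. A member's values are given in full where it was called in a WT radiation or a genotype comparison, and other repair genes are named where called in WT tissue against 0 h. Promoters came from RefSeq tables, GRCm38.p6. Same-numbered arrays of different groups deviated together slightly more than others. The median r was 0.010 against -0.006 in colon and 0.012 against -0.007 in jejunum.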

Additional observations from a re-analysis of the deposited data

Results flagged for a closer look

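Among 78 groups of the genes given in full, 8 held 1 array far from the others, and chance alone gives about 1 in 20. In WT colon, Parp1 was low on 6 h replicate 2 (6.88, others 7.12 to 7.17), Polh high on 24 h replicate 5 (5.61, others 5.49 to 5.50) and Primpol high on 24 h replicate 2 (5.51, others 5.14 to 5.19). In KO colon, Polk was low on 6 h replicate 4 (6.18, others 6.83 to 6.97). Chek1 stood apart in 3 colon groups, where the others are nearly equal. It read 3.17 on WT 24 h replicate 2 (others 3.18), 3.01 on KO 6 h replicate 4 (others 3.17 to 3.19) and 3.57 on KO 24 h replicate 3 (others 3.11 to 3.18). In KO jejunum, Shld1 was low on 24 h replicate 3 (3.63, others 4.02 to 4.11). Primpol in colon changed from 0 to 6 h by 1.07 more in KO than in WT by a test of that difference, and its values are given above.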

How the results depend on the processing

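The 25 called changes of single repair genes were recomputed in 410 alternatives: 295 kept direction and call, 115 kept direction and lost the call, and none reversed. Counts of repair genes called that moved were as follows. Without WT colon 0 h replicates 1 and 3, chosen after seeing the data, they went from 7 to 2 (WT 6 h), 5 to 1 (WT 24 h), 3 to 1 (KO against WT at 0 h) and 1 to 0 (difference of changes at 6 h). Calls over all genes fell in these comparisons as well, from 297 to 102, 722 to 203, 283 to 65 and 3 to 1. With replicate 2 of WT 0 h and replicate 3 of KO 0 h left out, also chosen after, colon WT 6 h went from 7 to 10 (8 of them lower), WT 24 h from 5 to 6, KO 24 h from 0 to 2 and the difference of changes from 1 to 0. Without the 3 jejunum arrays with colonic markers, chosen after as well, WT 6 h went from 2 to 1, KO 24 h from 1 to 0 and KO against WT at 24 h from 0 to 1. With no filter, colon WT 6 h went from 7 to 6, WT 24 h from 5 to 3, KO against WT at 0 h from 3 to 2, jejunum WT 6 h from 2 to 1 and KO 24 h from 1 to 0. With the mean of all probe sets, colon WT 6 h went from 7 to 5, jejunum WT 6 h from 2 to 0, WT 24 h against 6 h from 1 to 0 and KO against WT at 6 h from 0 to 1. With quantile normalization, colon WT 6 h went from 7 to 8, WT 24 h from 5 to 4, jejunum WT 6 h from 2 to 1, and jejunum WT 24 h against 0 h and against 6 h each from 1 to 2. With array series as a term, colon WT 6 h went from 7 to 6, WT 24 h from 5 to 4, KO against WT at 0 h from 3 to 0, jejunum WT 6 h from 2 to 1, and jejunum KO against WT from 0 to 1 at 0, 6 and 24 h. Replicate numbers were not treated as pairs in the main fit. With the replicate block, colon WT 6 h went from 7 to 6, WT 24 h from 5 to 6, KO 24 h from 0 to 1, KO against WT at 0 h from 3 to 2, the colon difference of changes at 6 h from 1 to 0 and jejunum WT 24 h from 1 to 2. Leaving out 1 array gave 4 to 14 for colon WT 6 h, 2 to 14 for WT 24 h, 2 to 3 for KO 6 h, 0 to 2 for KO 24 h, 0 to 1 for KO 24 h against 6 h, 1 to 8 for KO against WT at 0 h and 0 to 2 for the difference of changes at 6 h. In jejunum it gave 0 to 3 for WT 6 h, 1 to 2 for WT 24 h, 0 to 1 for WT 24 h against 6 h, for KO 24 h and for KO against WT at 24 h, and 0 elsewhere. Over all genes tested, leaving out 1 array gave 175 to 710 calls for colon WT 6 h and 327 to 1341 for colon WT 24 h. The causes were not tested. Members near the floor have little range left to fall.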
